A study of Homo sapiens with 18 samples.

Results

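RNA polymerase II (Pol II) was mapped by chromatin immunoprecipitation sequencing (ChIP-seq) in HCT116 cells, an established human line derived from a colon carcinoma. The 4 libraries described here were chosen by title as the numbered Pol II libraries, IAA (n = 2) and Control (n = 2), out of the 18 libraries of the series. In both groups the cells carry the INTS11-AID tag, a degron that makes INTS11 unstable once auxin (IAA) is added, and both were precipitated with 1 Abcam antibody to Pol II. A single protocol text serves every sample of the series; it names 14 h without serum and 500 µM IAA for 1 h, and also EGF and IFN-beta, which the titles of these 4 libraries do not carry. The sources used here do not say whether the line is 1 clone or whether replicates were separate cultures, so p-values measure the spread between libraries, which may be technical. Integrator, the complex that INTS11 belongs to, cuts nascent transcripts of Pol II. INTS11 is its endonuclease, and the complex is known for forming the 3′ ends of small nuclear RNAs and for ending transcription early at protein-coding genes, near the place where Pol II pauses after the start. The degron acts on the protein, so no Pol II value here checks its loss.

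After removal of peaks sharing at least 1 bp with an input peak (1.25% to 2.31% of a list), 17707 and 23059 peaks remained in the IAA lists, against 22489 and 27169 in the Control lists. A background density was solved from the lists as a stand-in for depth. It is the background shared by the most peaks divided by the shortest peak. It was 5.04 and 6.06 fragments per kb with IAA, against 2.94 and 5.72 in Control, and is not a count of reads. For ranks, every list was cut to its 17707 strongest peaks by the deposited −log10 q, and a peak's rank percentile is 100 for the strongest and near 0 for the weakest. A gene-start peak is the highest-ranked peak sharing 1 bp with the window of 1 kb either side of the annotated start, or of either gene end where the reference gave no strand. Of 15 epithelial markers 12 had a gene-start peak in at least 1 list, EPCAM, KRT18, KRT19, CDH1 and CDX2 among them. The same held for 4 of 15 blood cell markers, 6 of 15 neuron markers and 1 of 15 fibroblast and muscle markers. Over all protein-coding genes it held for 11802 of 19970.

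The question was how Pol II was redistributed over genes with IAA. The order of genes by Pol II changed far more between the groups than within them. Over 9432 protein-coding genes with a gene-start peak in all 4 cut lists, the Spearman correlation of ranks across genes was 0.899 between the IAA libraries and 0.888 between the Control libraries, but 0.491 to 0.503 between an IAA and a Control library. These are descriptions across genes, which are not independent replicates, and the libraries compared differ in background density, the stand-in for depth. Pol II rank rose at 1631 genes (17.3% of the 9432 tested) and fell at 1526 (16.2%), by limma on the normal scores of the ranks with a Benjamini-Hochberg adjusted p under 0.05. Without Control replicate 2 these counts were 851 and 502, without Control replicate 1 they were 910 and 571, and without IAA replicate 2 the first was 968. Genes that share a promoter share a peak, and 1352 distinct peaks lay behind the genes that rose and 1390 behind those that fell. Among genes that rose, the median percentile of the group mean was 89.6 with IAA and 57.9 in Control. Among genes that fell it was 51.4 with IAA and 85.7 in Control.

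**Figure D1:**
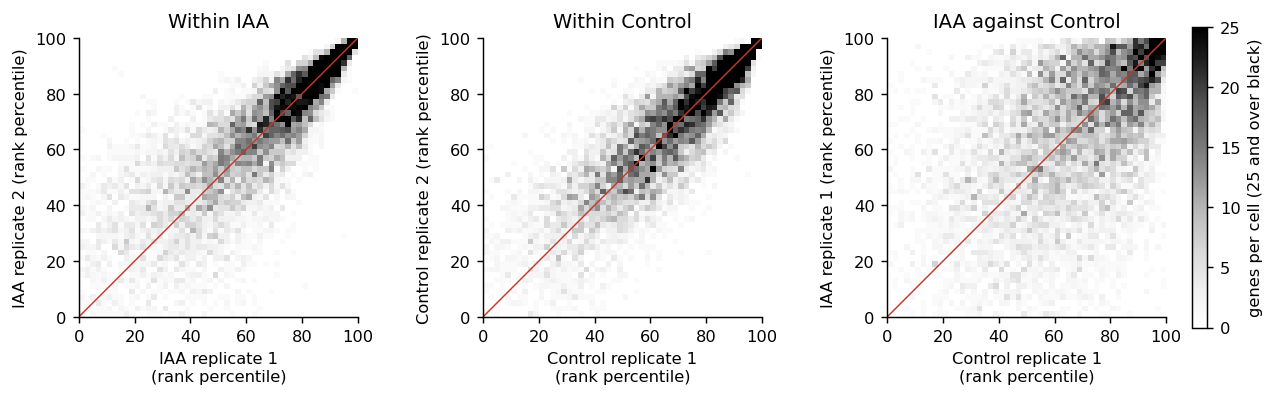
Rank percentile of the gene-start Pol II peak at 9432 protein-coding genes in pairs of libraries, with darker cells holding more genes and the red line marking equal rank. Replicates of a group follow the line (Spearman 0.899 within IAA and 0.888 within Control), while IAA replicate 1 scatters widely against Control replicate 1 (0.503).

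A rule of size that also takes genes without a peak in some lists gave 1960 higher genes (16.6% of 11802 with a gene-start peak in any list) and 2822 lower genes (23.9%). It asks that both IAA libraries lie at least 10 points above both Control libraries, or below them. Presence at equal list length was asymmetric. A gene-start peak was in both IAA and neither Control list at 116 genes (0.983%), and in both Control and neither IAA list at 662 genes (5.61%). Of these, 37 gained and 428 lost genes also had no such peak in the full lists of the other group. These counts do not compare directly. The list of IAA replicate 1 is the shortest and was not cut, so a lost gene could reappear only in IAA replicate 2. A gained gene could reappear in either Control list. The number of genes with a gene-start peak at equal length was 10304 ± 227 with IAA and 11234 ± 70.7 in Control (SD, n = 2 each), with no overlap (exact permutation test, p = 0.33, the lowest value that 2 libraries against 2 can give). The full lists gave a gene-start share of 54.3% ± 5.46 with IAA and 48.8% ± 4.40 in Control (SD, n = 2 each), with overlapping groups. At equal length that order turned, to 58.6% ± 0.515 with IAA and 61.4% ± 0.671 in Control (SD, n = 2 each, exact permutation p = 0.33).

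The genes that rose most from a low Control rank were led by NR4A3, an immediate early gene for a nuclear receptor. NR4A3 (chromosome 9, 99821885 to 99866891) ranked at 75.3 and 83.7 with IAA, against 4.79 and 5.74 in Control, a limma difference of 2.45 ± 0.20 (SE) normal score units with an adjusted p of 0.00551. That the IAA libraries both lay above both Control libraries follows from the choice of these genes by gap. ZNF17, a zinc finger gene on chromosome 19, ranked at 81.8 and 86.1 with IAA, against 3.62 and 16.6 in Control. HMGXB4, a gene for an HMG-box protein, ranked at 86.2 and 88.3 with IAA, against 5.36 and 21.2 in Control. SCML2 on chromosome X, a Polycomb group gene, ranked at 84.2 and 86.8 with IAA, against 5.90 and 23.1 in Control. The groups lay apart by 61.1 to 65.1 points at these 3 genes. The others of the 8 genes with the widest gap among those that rose were PSMB3, a proteasome subunit gene, LOC124902602, and TRAPPC2B with ZNF547, which share 1 peak. The peak of PSMB3 also covers the tRNA gene TRN-GTT2-5, with summits 837 to 862 bp before the PSMB3 start in IAA. With a window of 500 bp its rank difference shrank to 34.6 points and no longer met the rule of size, and that of LOC124902602 was -20.7 points when the summit had to lie in the window.

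Genes that fell most were led by JUND, a gene for an AP-1 transcription factor subunit. JUND (chromosome 19, 18279694 to 18281622) ranked at 3.61 and 15.0 with IAA, against 96.3 and 97.4 in Control, a limma difference of -3.29 ± 0.28 (SE) with an adjusted p of 0.00551. Both IAA libraries placed it near the bottom of the list and both Control libraries near the top. STN1, a gene for a telomere maintenance protein, ranked at 14.9 and 18.6 with IAA, against 93.3 and 94.9 in Control. HMGA1, a gene for an architectural chromatin protein, ranked at 24.1 and 29.2 with IAA, against 96.7 and 93.8 in Control, and shares its peak with LOC124901225. DNAJB1, a gene for an HSP40 co-chaperone, ranked at 9.97 and 27.5 with IAA, against 92.6 and 96.1 in Control, and shares its peak with TECR. The summits of that peak lay 406 to 462 bp before the DNAJB1 start and 83 to 139 bp inside TECR, so they lie nearer to the TECR start. Across these genes no IAA value reached a Control value, which follows from their choice by gap. ALDOA and PDP1 completed the 8, and both depend on a choice. When the summit had to lie in the window, the difference at ALDOA turned to 14.5 points, with summits 254 and 52 bp before its start with IAA, against 1524 and 1562 bp inside the gene in Control. Ranked by the deposited fold in place of −log10 q, PDP1 differed by 0.700 points.

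**Figure D2:**
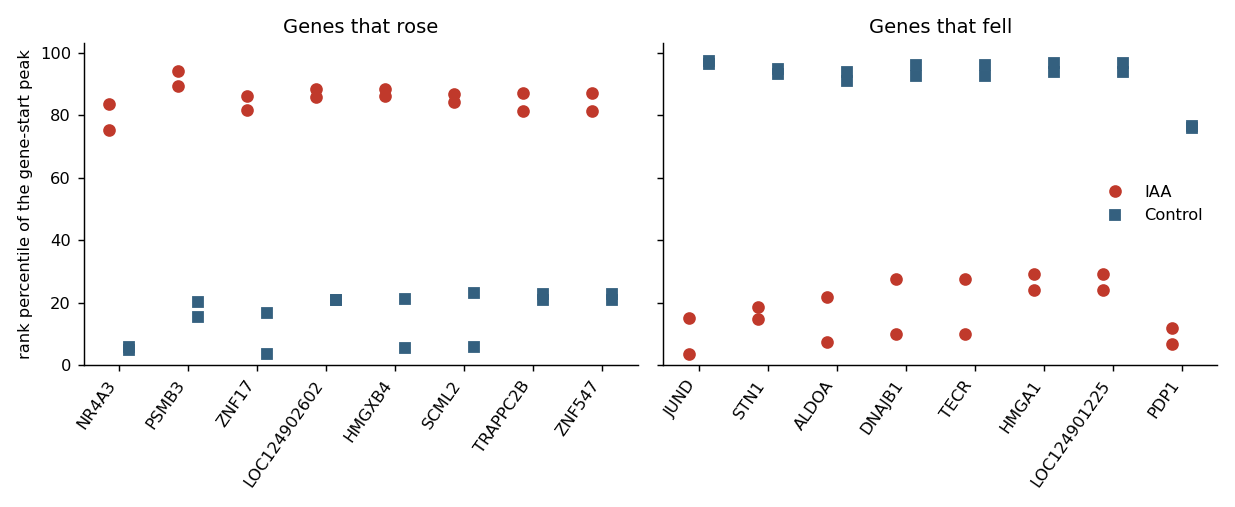
Rank percentile of the gene-start Pol II peak for the 8 genes with the widest gap among those that rose (left) and those that fell (right), with IAA libraries as red circles and Control libraries as blue squares, 2 libraries each. That the groups do not overlap at any of the 16 genes follows from their choice by gap. NR4A3 lies at 75.3 and 83.7 with IAA against 4.79 and 5.74 in Control, and JUND at 3.61 and 15.0 with IAA against 96.3 and 97.4 in Control.

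Several genes with a strong Control peak had no gene-start peak at all in the cut IAA lists. INSIG1, a sterol-regulated gene of the cholesterol pathway (chromosome 7, 155297878 to 155310235), ranked at 91.2 and 92.0 in Control. Its nearest IAA summits in the full lists lay 67725 and 3356 bp from the start, against 49 and 33 bp in Control. RXRA, a gene for the retinoid X receptor, ranked at 86.2 and 87.7 in Control, with the nearest summits 2353 and 585 bp away with IAA, against 473 and 469 bp in Control. MAP2K7, a gene for a kinase of the JNK pathway, ranked at 92.4 and 92.5 in Control, C1QTNF6 at 90.4 and 90.1, and MANBAL at 86.4 and 84.9. At MANBAL the nearest IAA summits lay 56562 and 5510 bp from the start, against 77 and 96 bp in Control. These 5 genes had no gene-start peak in either cut IAA list. RAB37, TMPRSS4 and LOC124901712 also headed the lower genes, but only through peaks at the edge of the window. With a window of 500 bp, or with the summit required inside it, none of the 3 had a gene-start peak in any cut list.

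Peaks present in both IAA lists and missing from both cut Control lists were weaker. LOC124903857 ranked at 76.3 and 79.9 with IAA, and GGA1, a gene for a Golgi sorting adaptor, at 73.2 and 78.8. IER2, an immediate early gene, ranked at 80.8 and 70.0 with IAA at a peak shared with STX10, with summits 11 and 19 bp from the IER2 start. Ranked by the deposited fold, its difference was 4.91 points in place of 75.4. In the full Control lists the nearest summits lay 1235 and 1251 bp from the IER2 start, at percentiles of 75.4 and 84.7 of those lists. Peaks near IER2 were thus present in both groups, close to the start with IAA and outside the window in Control. MAMSTR, CBR3, MZF1 and TCTN2 were the other leading gains, at 62.4 to 77.8 with IAA. At these genes and at GGA1 a full Control list did hold a gene-start peak, which the cut to equal length removed. At GGA1 the full Control lists had summits 264 and 279 bp from the start, at percentiles of 1.38 and 33.5 of those lists. PIK3R3, a gene for a regulatory subunit of PI3 kinase, ranked at 80.1 and 92.9 with IAA, was absent from the cut list of Control replicate 1 and ranked at 2.63 in Control replicate 2. APOOL on chromosome X, a mitochondrial membrane gene, ranked at 78.8 and 81.8 with IAA and showed the same absence, with 1.84 in Control replicate 2. KBTBD8, TMEM272 and TRIM55 met the rule likewise. TRIM55 shares its peak with 3 tRNA genes, and with a window of 500 bp its difference was -7.72 points.

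The genes named for the highest mean rank over all 4 lists are a description, since the rule asked for a high rank in both groups. SOCS1, a cytokine signalling inhibitor gene, lay at 99.97 and 99.97 with IAA, against 99.8 and 99.96 in Control. POLR2A, the gene for the largest Pol II subunit, lay at 99.96 and 99.8 with IAA, against 99.9 and 99.9 in Control, at a peak that it shares with SLC35G6 and ZBTB4. DGAT1 completed the 4 highest.

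A short motif was frequent in promoters of genes that rose and rare in those of genes that fell. It was picked out of 7 motifs after its values were seen, so its counts are a description. AANATGGC, read on the gene strand, is the core of the recognition sequence of the zinc finger factor YY1, and it began within the first 30 bases after the start in 274 of 1398 promoters of genes that rose (19.6%). It did so in 7 of 1254 promoters of genes that fell (0.558%), in 461 of 7814 tested genes with a promoter sequence (5.90%) and in 505 of all 15811 promoters (3.19%). Of the 461 tested genes that hold it there, 59.4% rose and 1.52% fell, against 15.3% and 16.96% of the 7353 without it. Their median rank was 90.3 and 91.3 with IAA, against 70.9 and 71.7 in Control. The genes without it had medians of 69.8 and 69.6 with IAA, against 70.0 and 70.2 in Control. By position, among genes whose match began 1 to 10, 11 to 20, 21 to 30 or 31 to 40 bases after the start, 55.2%, 60.1%, 60.8% and 67.7% rose, while in 7 bins of matches that began before it the share ran from 13.0% of 23 genes, 250 to 211 bases before, to 37.8% of 37 genes, 90 to 51 bases before. Written the other way on the gene strand (GCCATNTT), anywhere in the promoter, 23.5% of 310 genes rose.

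The 6 genes that rose with the widest gap and hold AANATGGC wholly within the 30 bases after the start are shown first, followed by MAP2K7 and INSIG1, whose gene-start peaks were lost. Each line gives 120 bases before the start and 30 from it on, 5′ to 3′ on the gene strand, from RefSeq on GRCh38.p14, with capitals marking AANATGGC and GGGCGG (the GC box) on either strand.
ZNF17, chr19:57411041-57411190, plus strand: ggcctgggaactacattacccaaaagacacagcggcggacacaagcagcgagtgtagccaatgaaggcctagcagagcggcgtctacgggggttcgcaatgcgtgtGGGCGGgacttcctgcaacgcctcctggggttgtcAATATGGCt
HMGXB4, chr22:35257373-35257522, plus strand: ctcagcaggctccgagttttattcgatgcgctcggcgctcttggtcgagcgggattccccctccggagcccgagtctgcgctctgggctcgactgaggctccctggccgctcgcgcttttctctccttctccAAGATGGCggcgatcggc
SCML2, chrX:18354659-18354808, minus strand: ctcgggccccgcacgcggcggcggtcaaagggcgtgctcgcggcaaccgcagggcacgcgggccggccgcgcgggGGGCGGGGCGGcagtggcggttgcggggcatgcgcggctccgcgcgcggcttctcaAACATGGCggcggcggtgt
CUX1, chr7:101815887-101816036, plus strand: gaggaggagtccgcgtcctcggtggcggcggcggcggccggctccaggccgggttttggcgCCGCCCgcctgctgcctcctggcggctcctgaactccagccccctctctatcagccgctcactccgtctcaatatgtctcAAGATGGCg
RNF26, chr11:119334407-119334556, plus strand: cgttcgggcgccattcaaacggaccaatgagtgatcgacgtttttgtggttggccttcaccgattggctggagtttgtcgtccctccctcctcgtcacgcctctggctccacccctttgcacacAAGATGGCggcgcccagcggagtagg
SYMPK, chr19:45863118-45863267, minus strand: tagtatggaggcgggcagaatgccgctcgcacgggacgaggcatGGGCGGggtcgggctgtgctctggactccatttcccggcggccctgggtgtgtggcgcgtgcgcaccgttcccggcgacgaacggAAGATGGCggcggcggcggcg
MAP2K7, chr19:7903757-7903906, plus strand: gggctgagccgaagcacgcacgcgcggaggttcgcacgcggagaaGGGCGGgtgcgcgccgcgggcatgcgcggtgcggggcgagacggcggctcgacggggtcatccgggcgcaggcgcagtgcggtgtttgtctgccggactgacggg
INSIG1, chr7:155297758-155297907, plus strand: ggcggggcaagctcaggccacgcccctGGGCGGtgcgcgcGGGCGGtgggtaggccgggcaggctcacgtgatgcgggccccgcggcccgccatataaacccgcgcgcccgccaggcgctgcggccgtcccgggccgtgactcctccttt
In the first 6 lines the match to AANATGGC begins 22, 13, 12, 22, 5 and 10 bases after the start, counting the start as 1. CUX1, a homeobox gene, ranked at 85.7 and 92.7 with IAA, against 27.5 and 13.5 in Control. RNF26, a ubiquitin ligase gene, ranked at 90.2 and 90.6 with IAA, against 35.4 and 30.4 in Control. SYMPK, the gene for the 3′-end processing scaffold symplekin, ranked at 90.7 and 90.8 with IAA, against 35.9 and 27.6 in Control. All 6 had both IAA values above both Control values, which follows from their choice by gap. Neither MAP2K7 nor INSIG1 has AANATGGC in the printed bases.

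Promoter base composition moved with the rank change as well. Over the 300 bases around the start, the median GC content was 63.0% for genes that rose, 69.3% for genes that fell and 66.0% for all genes tested. Across 7814 genes the Spearman correlation of the rank difference with GC was -0.215, and within single libraries the rank correlated with GC at -0.112 and -0.0960 with IAA, against 0.0859 and 0.119 in Control. The genes share libraries, so these correlations are descriptions. In the fifth of genes with the least GC 26.8% rose and 10.2% fell, whereas in the fifth with the most GC 10.6% rose and 24.3% fell. Within every one of the 5 GC bins more genes rose with AANATGGC after the start than without it, from 47.8% against 12.8% in the fourth bin to 69.7% against 23.2% in the first. With each library's ranks adjusted for promoter GC, limma called 1259 risen and 1218 fallen genes, against 1417 and 1280 in a fit of genes with a strand without that adjustment. Gene length moved little with the difference (Spearman 0.0132 over 9432 genes).

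**Figure D3:**
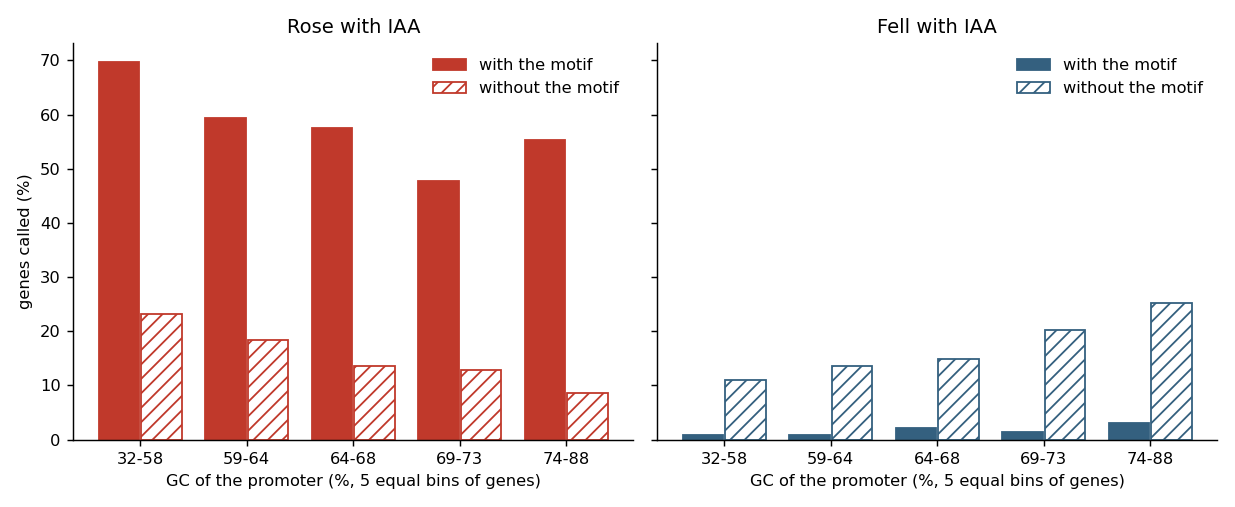
Share of genes whose Pol II rank rose (left) or fell (right) with IAA, in 5 equal bins of genes by promoter GC, with filled bars for promoters that hold the YY1-type motif in the 30 bases after the start and hatched bars for those without it. In the bin with the most GC, 55.4% of genes with the motif and 8.62% of those without it rose, and 3.08% and 25.2% fell.

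The other motifs searched differed less. GGGCGG was in 68.7% of promoters of genes that rose, 79.5% of those that fell, 74.9% of those tested and 58.5% of all promoters. TATAAA was in 3.58%, 6.46%, 4.89% and 9.64% of the same groups, and read on the gene strand it marked 255 genes of which 12.5% rose and 24.3% fell. CCAAT, the ETS motif CCGGAAG, the CRE TGACGTCA and the palindromic motif of NRF1, on either strand, marked genes of which 20.1%, 18.9%, 17.7% and 14.4% rose and 15.8%, 15.0%, 19.8% and 11.6% fell, against 1398 that rose and 1254 that fell (17.9% and 16.05%) of all 7814. A promoter can hold several of these motifs, and GGGCGG and CCGGAAG can overlap a neighbour by a base or more. By chromosome, X stood highest, with 59 genes that rose and 23 that fell of 242 and a median difference of 7.38 points, against -0.14 over all genes, and chromosome 19 followed with 3.06 points. Median promoter GC was 63.7% on X and 64.7% on chromosome 19.

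Pol II summits at gene starts lay farther from the start with IAA. Over 8159 genes with a strand and a gene-start peak in all 4 full lists, the median summit lay 86 and 95 bp inside the gene with IAA, against 47 and 48 bp in Control. Among the 3731 genes with all 4 summits in the first 500 bp, the medians were 112 and 118 bp with IAA, against 66 and 67 bp in Control (difference 48.5 bp, exact permutation p = 0.33, again the lowest possible). Both IAA summits lay farther in at 2689 of them (72.1%) and nearer at 133 (3.56%). On the other side of the start the summits moved away too. Among the 1079 genes with all 4 summits in the 500 bp before the start, the medians were -267 and -276 bp with IAA, against -219 and -219 bp in Control. Both IAA summits were farther out at 741 (68.7%) and nearer at 59 (5.47%). The share of genes whose summit lay inside the start did not move beyond the spread, 68.0% ± 0.945 with IAA and 67.5% ± 0.598 in Control (SD, n = 2 each, exact permutation p = 0.667). The shift was found at genes with and without AANATGGC, with medians of 93 and 102 bp with IAA against 44 and 50 bp in Control for the 461 genes that hold it. The shortest peak of a list, which follows the fragment length set at peak calling, was 196 and 198 bp with IAA, against 190 and 162 bp in Control. The part of fragment length in the shift was not tested.

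**Figure D4:**
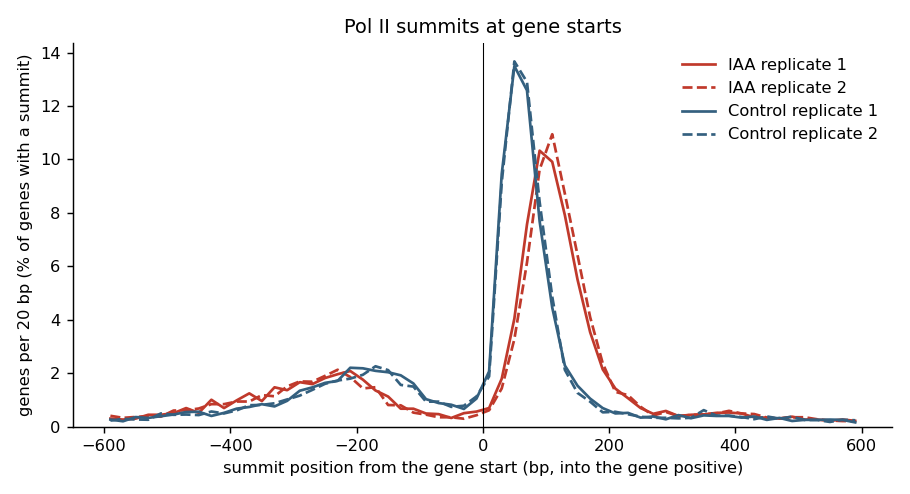
Position of the gene-start Pol II summit relative to the annotated start, in bins of 20 bp, as a percentage of the genes with a summit in each library, with IAA in red and Control in blue. The 2 IAA lines peak farther in than the 2 Control lines, and the smaller hump before the start lies farther out with IAA. Over the genes plotted for each library the median summits are 86 and 93 bp with IAA against 46 and 48 bp in Control.

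Larger moves, of at least 100 bp between the groups, went into the gene at 652 genes (7.99% of 8159) and out of it at 634 (7.77%). limma on the positions called 500 (6.13%) and 485 (5.94%), but 0 and 0 with the replicate number as a block. The calls also did not hold when either Control library was left out. At TUBB3, a tubulin gene, the strongest gene-start summit lay 1468 and 1478 bp inside with IAA, against 23 and 24 bp in Control. At FADS1, a fatty acid desaturase gene, it lay 1440 and 1467 bp inside with IAA, against 164 and 147 bp before the start in Control. At SREBF1, a gene for a sterol-responsive transcription factor, it lay 1633 and 1627 bp before the start with IAA, against 525 and 532 bp inside in Control. These moves compare the strongest of several peaks, so a summit can change by which peak ranks first. A summit beyond 1 kb counts because the edge of its peak reaches the window. TUBB3 also had IAA summits 100 and 69 bp from the start, and SREBF1 Control summits 62 and 41 bp from it. At FADS1 no nearer summits were listed. With the summit required inside the window, 612 genes moved in and 592 out. ING1, LOC124902602, ZFP36L1, SCRN1 and MARCKS also moved in, with 1326 to 1873 bp between the groups, and LOC124903569 with RFX7, GPRC5B, ALDOA, LOC128092247 and H3C15 moved out, with 1504 to 2064 bp between the groups. At WDR74 (452 and 451 bp inside with IAA, 1997 and 1897 bp before the start in Control) the peak is that of the snRNA gene RNU2-2. At PTPN6 (2068 and 1967 bp before the start with IAA, 37 and 62 bp inside in Control) the rank rose too, to 99.4 and 94.8 with IAA, against 48.8 and 45.02 in Control, and the IAA rank equals that of the nearby RNU7-1.

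Small nuclear RNA genes are a textbook substrate of Integrator. All 20 listed snRNA genes had a peak in all 4 cut lists, 9 fell, 0 rose, and the median difference was -3.84 points. Over all protein-coding genes 17.3% rose and 16.2% fell. By the rule of size 1 of the 20 was lower and 0 were higher, against 23.9% and 16.6% of all genes. The median rank of the list was 98.6 and 93.2 with IAA, against 99.8 and 99.5 in Control, so that the Control ranks left little room for a higher one. The snRNA genes stayed among the strongest peaks: RNU2-1 (chromosome 17, 43233790 to 43233977) lay at 97.5 and 96.9 with IAA, against 99.9 and 99.9 in Control. RNU4ATAC, of the minor spliceosome, lay at 95.3 and 92.3 with IAA, against 99.9 and 99.8 in Control. RNU5D-1 lay at 84.2 and 88.6 with IAA, against 99.7 and 99.4 in Control, the widest gap of the list. RNU4-1 with RNU4-2, RNU5F-1, RNU11, RNU12 and RNVU1-18 also fell (adjusted p = 0.0226 to 0.0396), whereas RNU1-1 at 98.8 and 90.3 with IAA, against 99.6 and 98.6 in Control, did not pass (adjusted p = 0.180).

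The median distance from the summit to the snRNA gene body was 735.5 and 468.5 bp with IAA, against 38.5 and 32.0 bp in Control. At RNU2-1 it was 594 and 593 bp with IAA and 0 bp in both Control libraries. At RNU5A-1 it was 1038 and 985 bp with IAA and 0 bp in both Control libraries, and at RNU11 442 and 416 bp with IAA, against 0 and 0 bp in Control. The repeated U1, U2 and SNORD3 genes have near-identical copies, so reads there may be split or dropped by the alignment. The sources used here give no strand for these genes, so the distance has no direction. Of 12 independently transcribed snoRNA, scaRNA and telomerase RNA genes 9 were tested, 3 fell and 0 rose, against 16.2% and 17.3% of all genes, and the median rank was 99.9 and 97.9 with IAA, against 99.6 and 98.7 in Control. Their median distance was 614.5 and 751 bp with IAA, against 7 and 31 bp in Control. SCARNA2 lay at 79.3 and 80.0 with IAA, against 98.5 and 98.9 in Control. SNORD118, the U8 gene, lay at 99.7 and 99.3 with IAA, against 99.98 and 99.97 in Control, with summits 386 and 380 bp away with IAA and 0 bp in both Control libraries. TERC, the telomerase RNA gene, ranked at 32.9 in IAA replicate 1, was absent from the cut list of IAA replicate 2, and lay at 97.6 and 98.0 in Control. Genes made by Pol III showed no common direction in rank, with 2 that rose and 3 that fell of 9 tested, and median distances of 298.5 and 380 bp with IAA, against 353 and 227 bp in Control. RMRP rose to 96.2 and 96.7 with IAA, against 81.6 and 82.6 in Control, and RNU6-1 fell to 17.6 and 5.68 with IAA, against 58.7 and 57.9 in Control.

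Replication-dependent histone genes, whose transcripts end without a poly(A) tail, fell at 16 of 44 tested and rose at 1, against 16.2% and 17.3% of all genes. Their median rank in Control was high, 93.0 and 92.0, against 70.4 and 70.6 over all genes. H2AC21 lay at 65.6 and 67.8 with IAA, against 90.7 and 92.0 in Control, at a peak shared with H2BC21 and H2AC20. H3C1 and H4C1 share a peak at 90.3 and 89.3 with IAA, against 98.5 and 98.6 in Control. H4C8 was the 1 that rose, to 69.5 and 75.3 with IAA, against 44.2 and 22.3 in Control. Neighbouring histone genes share peaks and sequence, so the members are not independent. H3C6 was lost.

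Immediate early genes, which growth signals switch on within minutes, moved both ways, with 4 that rose and 11 that fell of 43 tested, against 17.3% and 16.2% of all genes. Their median rank in Control was high, 96.0 and 94.5, against 70.4 and 70.6 over all genes. Beside JUND, MCL1 lay at 48.8 and 71.3 with IAA, against 94.8 and 94.5 in Control, and SPRY2, a MAPK feedback gene, at 12.7 and 11.1 with IAA, against 45.7 and 44.1 in Control. MYC lay at 89.4 and 92.9 with IAA, against 97.9 and 98.0 in Control (adjusted p = 0.0343). Beside NR4A3, FOSB lay at 99.5 and 99.6 with IAA, against 95.0 and 95.5 in Control. SPRED2 lay at 93.4 and 84.5 with IAA, against 45.8 and 25.2 in Control. ZFP36L1 rose too, at summits 1653 and 1758 bp inside the gene. ID1 was lost, and EGR3 and IER2 were gained.

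Glycolysis, the pathway that breaks down glucose, and the translation machinery held many genes that fell, against 16.2% of all genes. Median ranks in Control were 89.3 and 88.9 for glycolysis and 90.7 and 86.6 for ribosomal protein genes. They were 96.7 and 95.7 for snoRNA host genes, against 70.4 and 70.6 over all genes. These lists thus had more room to fall than to rise, and the part of this in the counts was not tested. Of 17 glycolysis genes tested 11 fell and 1 rose, with a median difference of -12.2 points, against -0.14 over all genes. GAPDH lay at 65.0 and 73.8 with IAA, against 97.7 and 97.1 in Control. ENO1 lay at 32.5 and 49.7 with IAA, against 88.7 and 85.3 in Control. PGK1, LDHA, LDHB, PKM and GPI also fell, and ALDOC rose to 88.6 and 92.2 with IAA, against 71.7 and 77.4 in Control. Of 71 cytosolic ribosomal protein genes 30 fell and 6 rose, with a median difference of -12.3 points. RPL3 lay at 44.1 and 62.3 with IAA, against 98.2 and 97.8 in Control, and RPL13 at 31.0 and 16.7 with IAA, against 94.9 and 84.2 in Control. snoRNA host genes, which carry snoRNAs in their introns, fell at 12 of 20 and rose at 1. GAS5 lay at 73.1 and 75.8 with IAA, against 98.0 and 97.1 in Control, and SNHG16 was the 1 that rose.

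Among genes of the respiratory chain, the NDUF genes, which encode subunits of complex I, were read. Of 33 tested 13 rose and 2 fell, against 17.3% and 16.2% of all genes, with a median difference of 6.18 points. NDUFA3 lay at 95.8 and 96.4 with IAA, against 41.0 and 43.8 in Control, and NDUFS3 at 95.7 and 96.7 with IAA, against 54.3 and 61.4 in Control. NDUFA10 fell to 26.4 and 18.9 with IAA, against 68.6 and 57.8 in Control. Of the 29 NDUF genes with a promoter sequence and a peak in all 4 lists, 8 hold AANATGGC in the 30 bases after the start, and 6 of those 8 rose. In the ribosomal protein, glycolysis and snoRNA host lists 2 of 58, 0 of 17 and 0 of 18 such genes hold it there. Over all tested genes with a promoter sequence 461 of 7814 (5.90%) hold it, and 59.4% of those rose. The part of the motif in how these lists moved was not tested.

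**Figure D5:**
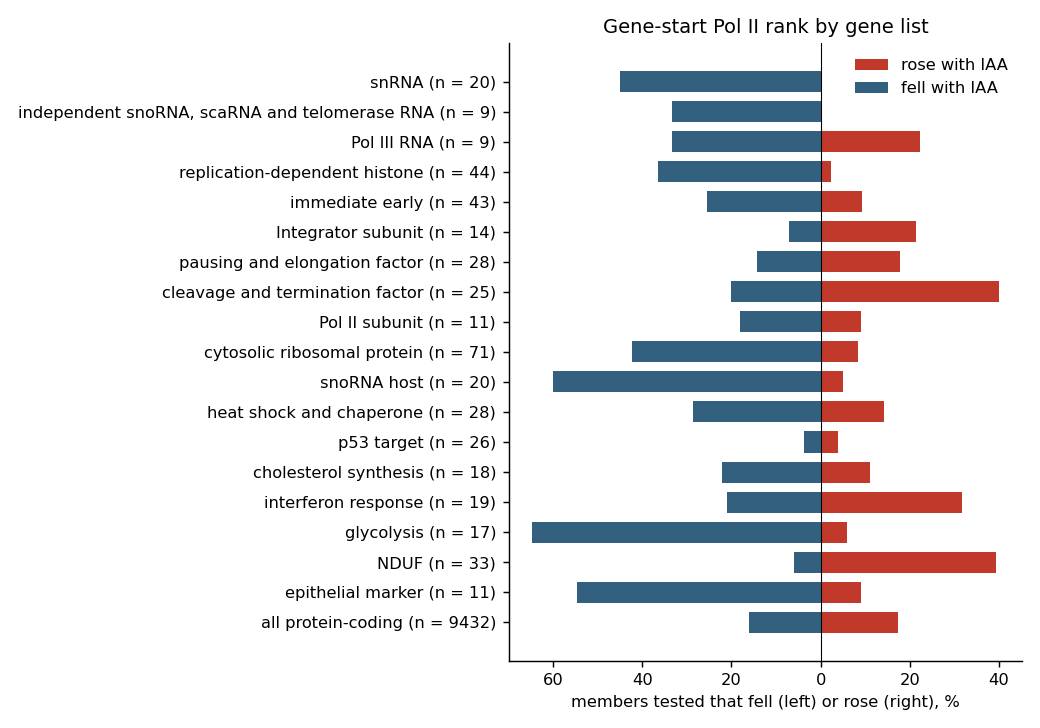
Percentage of the tested members of each gene list whose gene-start Pol II rank fell (blue, left) or rose (red, right) with IAA by limma at an adjusted p under 0.05, with the number tested in brackets. Glycolysis (11 of 17) and snoRNA host genes (12 of 20) have the longest blue bars, and cleavage factors (10 of 25) and NDUF genes (13 of 33) the longest red ones, against 17.3% risen and 16.2% fallen over all 9432 genes.

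Genes for the transcription machinery itself were divided. Of 25 cleavage and termination factor genes tested 10 rose and 5 fell, against 17.3% and 16.2% of all genes. By the rule of size the list was even, with 8 higher and 8 lower. NUDT21, a subunit gene of cleavage factor I, lay at 97.9 and 95.6 with IAA, against 45.6 and 62.1 in Control, and CSTF2 at 89.6 and 87.0 with IAA, against 36.6 and 26.4 in Control. PCF11, a termination factor gene, lay at 49.2 and 65.1 with IAA, against 91.3 and 88.6 in Control. Of 28 pausing and elongation factor genes 5 rose and 4 fell, near the shares over all genes. Of the 33 in this list with a gene-start peak in any list 3 were lost, against 5.61% of all genes. Among genes of the negative elongation factor, which holds paused Pol II, NELFA and NELFE rose and NELFB fell. NELFE lay at 92.6 and 91.4 with IAA, against 29.7 and 43.0 in Control, and NELFB at 23.7 and 31.9 with IAA, against 86.3 and 94.1 in Control. SUPT5H, a DSIF subunit gene, was among the lost, after 58.3 and 66.3 in Control. Of 14 Integrator subunit genes 3 rose, 1 fell and 1 more, INTS1, was lost. INTS9, the gene for the partner of INTS11 in the cleavage module, lay at 98.0 and 98.7 with IAA, against 40.2 and 39.7 in Control. INTS11 itself lay at 37.4 and 35.5 with IAA, against 49.7 and 48.2 in Control, and did not pass by limma (adjusted p = 0.207). By the rule of size INTS11 was lower, with a gap of 10.8 points, at a peak that it shares with CPTP. The summits lay 248 and 256 bp before the INTS11 start with IAA, against 219 and 213 bp before it in Control. Of 11 Pol II subunit genes 1 rose, POLR2B, and 2 fell, POLR2E and POLR2C.

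Stress, sterol, interferon, p53 and epithelial genes stand against the same shares, 17.3% risen and 16.2% fallen over all genes. Of 28 heat shock and chaperone genes 4 rose and 8 fell, from a median Control rank of 92.3 and 92.6, against 70.4 and 70.6 over all genes. HSP90AB1 lay at 77.5 and 82.4 with IAA, against 97.5 and 98.0 in Control, whereas HSPA4 lay at 96.4 and 97.6 with IAA, against 78.2 and 66.2 in Control. Of 18 cholesterol synthesis genes 2 rose and 4 fell, and 1 more, INSIG1, was lost. By the rule of size 10 of the 23 with a gene-start peak in any list were lower and 1 higher, against 23.9% and 16.6% of all genes. CYP51A1 lay at 41.2 and 30.7 with IAA, against 81.3 and 93.7 in Control. Of 19 interferon response genes 6 rose and 4 fell. RSAD2, an antiviral gene, lay at 73.8 and 75.9 with IAA, against 26.6 and 21.5 in Control. IFN-beta is named in the protocol text, and which samples received it is not given. Of 26 p53 target genes 1 rose and 1 fell, with a median difference of 0.14 points. XPC rose to 97.2 and 96.8 with IAA, against 59.6 and 60.5 in Control, and GDF15 fell to 88.1 and 96.4 with IAA, against 99.4 and 99.4 in Control. Among 11 epithelial markers tested 6 fell and 1 rose, from a median Control rank of 95.7 and 95.7, which left more room to fall than to rise. KRT19 lay at 29.5 and 57.8 with IAA, against 98.1 and 96.2 in Control, and CDH1 at 99.4 and 99.7 with IAA, against 97.2 and 97.0 in Control.

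Regions were also sorted by their place in the genome. The 4 cut lists joined into 24325 regions, of which 3751 (15.4%) were higher with IAA and 4600 (18.9%) lower by the rule of size. At gene starts 15.4% were higher and 24.8% lower, at gene ends 12.5% and 17.7%, in gene interiors 15.8% and 15.0%, in the flanks of genes 14.8% and 13.9%, and elsewhere in the genome, more than 5 kb from any protein-coding gene, 15.5% and 11.9%. By limma the gene-start regions were near even, with 1219 higher and 1198 lower of 8243. Regions in both IAA lists and neither Control list numbered 1548 (6.36%), and the reverse 2270 (9.33%). Among regions elsewhere, 1 on chromosome 1 (120355896 to 120357187), 58783 bp from NBPF8, ranked at 93.1 and 92.9 with IAA and was absent from both Control lists. Another on chromosome 17 (43254752 to 43255537), 24111 bp from CCDC200, ranked at 98.5 and 90.6 with IAA and was absent from both Control lists. On chromosome 13 a region (44141659 to 44142119) was absent from both IAA lists and ranked at 94.5 and 95.3 in Control. Inside CLASP1 on chromosome 2, 2 neighbouring regions (121532318 to 121532737 and 121532875 to 121534531) were absent from both cut Control lists and ranked with IAA at 95.6 and 88.9 and at 97.6 and 91.8. All places and distances here were set by protein-coding genes only. Genes of other types, snRNA genes among them, may therefore lie near any of these regions. Where the 11120 regions had a peak in all 4 lists, limma on ranks called 1706 (15.3%) higher and 1549 (13.9%) lower. The counts were 0 and 0 without Control replicate 1, 327 and 91 without Control replicate 2, and 923 and 868 higher without IAA replicate 1 and 2. At equal list length the median peak width was 394 ± 63.6 bp with IAA and 483 ± 15.6 bp in Control (SD, n = 2 each), and in full lists 366.5 ± 24.7 bp with IAA and 387 ± 24.0 bp in Control. At regions with a peak in all 4 lists, the width of a peak was taken relative to the median of its own list. On that relative scale peaks with IAA were wider by a median of 0.19 (log2), and 107 regions (0.962%) were wider and 28 (0.252%) narrower by limma. The list medians were shorter with IAA, so this does not mean wider in bp. No region passed when any 1 library was left out.

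Libraries of other antibodies, which the Pol II calls did not use, were read at the same genes. For Tyr1P, Pol II phosphorylated at tyrosine 1 of its C-terminal repeats, 38.7% of the 1631 genes that rose for Pol II were higher by the rule of size, against 8.72% of all genes. Of the 1526 genes that fell, 25.4% were lower for Tyr1P, against 11.6% of all genes, and 0 were higher. JUND lay at 34.7 and 50.7 for Tyr1P with IAA, against 93.9 and 90.4 in Control, and NR4A3 at 83.3 and 83.6 with IAA, against 43.5 and 40.04 in Control. Across 9429 genes the Spearman correlation of the Pol II and Tyr1P rank differences was 0.773, and across 6598 genes that of Pol II and Ser2P was 0.114. For Ser2P, 26.0% of genes that rose were higher, against 22.7% of all genes, and of genes that fell 15.9% were higher and 14.0% lower, against 22.7% and 10.7% of all genes. Of the 461 genes with AANATGGC after the start, 32.8% were higher and 0.651% lower for Tyr1P. For Ser2P 22.6% of those with a gene-start peak were higher and 14.3% lower, against 22.7% and 10.7% of all genes. Summits in the first 500 bp, over the genes of each library, had medians of 99 and 105 bp for Tyr1P with IAA, against 62 and 63 bp in Control. For Ser2P they were 81 and 85 bp with IAA, against 60 and 72 bp in Control.

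The 4 Pol II libraries without replicate numbers gave a mixed reading, with 1 library a label. In 2 of them, labelled IAA and EGF, the title and the file name name different treatments, each naming the other's, so their values stand by label only. Against the label Control, the label IAA showed 1.84% of the genes that rose as higher and 2.64% as lower, and the label EGF 24.4% and 6.13%. The label IAA+EGF showed 22.7% and 3.92%. Over all genes the shares were 4.83% and 4.51% for the label IAA, 13.7% and 12.8% for EGF and 12.8% and 13.7% for IAA+EGF. Of the genes that fell, 0.721% were lower for the label IAA, 15.5% for EGF and 15.1% for IAA+EGF. The median summit in the first 500 bp lay at 59, 90 and 85 bp for the labels IAA, EGF and IAA+EGF, and at 56 bp for the label Control. Genes with AANATGGC after the start had median rank differences of -0.68, -0.85 and 0.35 points for the labels IAA, EGF and IAA+EGF. Those lists were cut to 33226, 27701 and 28921 peaks. The numbered libraries gave 18.5 points at 17707 peaks and 11.3 points in full lists, so points at unlike list lengths do not compare directly. With 1 library a label, the rule of size here set a single library against a single library, which is easier to meet.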

How the data were processed

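Versions in the submitters' processing notes are MACS2 2.2.7.1, Bowtie2 2.3.4.1, Trim Galore 0.6.6, deepTools 3.5.1 and Picard 2.25.7, and the build is hg38. Options of these tools are not stated. The authors deposited a separate narrowPeak list for every library. In it a peak has a deposited fold enrichment (a ratio), a −log10 p, a −log10 q and a summit. These values are the authors' and were used to rank or filter peaks within a list. Read totals are not in the lists, so a background density was used in place of depth. It was solved from the deposited fold and −log10 p as a Poisson tail, which matched 100% of peaks.

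Chromosomes 1 to 22 and X were kept. Genes (19970 protein-coding) came from RefSeq on GRCh38.p14, and 15811 of them had a strand and a promoter sequence in the tables used. Where that table lists several starts, the first was taken. Ranks at equal length were turned into normal scores and tested with limma 3.58.1 in R 4.3.3 over 12172 genes of any type with a gene-start peak in all 4 cut lists. The procedure was tested on made-up data with known answers. The limma fit on ranks recovered 1 of 50 genes shifted by 0.5 normal score units and 2 of 50 shifted by 1. It recovered 36 of 50 shifted by 1.5 and 49 of 50 shifted by 2. A gene that was not called may therefore have changed. Far fewer genes were shifted there than were called in the data, so these shares do not carry over directly. Single values per library were compared with exact permutation tests, all two-sided.

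The genes, gene lists, motifs and tests were chosen with earlier results of these data known. Genes are named by a rule: the 8 protein-coding genes with the widest gap in each direction of rank, presence (by mean rank) and summit position, the 4 highest in all lists, and members of the lists that were called, of which the text gives examples. The 8 with the widest gap among genes that rose or fell were added after the values were seen, as was the position window of AANATGGC.

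Same-numbered libraries of the groups did not deviate together, so no block entered the fits. Alternatives were each library left out, other list lengths, the ranking column, windows, gaps and joins.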

Additional observations from a re-analysis of the deposited data

How the results depend on the processing

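The limits are the 2 libraries a group, the unknown read totals and options of peak calling, ranks in place of levels, and a reference without a strand for part of the genes. A rank compares peaks within a list, so a rise or fall is relative to the other peaks and not an absolute change of Pol II.

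With full lists of unequal length the rule of size gave 1064 higher genes and limma 809 that rose, 43 genes were gained, and among regions limma gave 639 higher and the rule of size 7078 lower. Cut to the 10000 highest-ranked peaks, 481 genes were gained and 1009 lost, limma called 888 fallen genes, and among regions 1097 higher and 950 lower. A gap of 20 points left 1040 higher and 1634 lower genes, a smaller count by construction. Requiring a deposited −log10 q of at least 5 gave 51 gained genes. The gene-start share of peaks differed by 5.54 points in full lists and by -2.88 points in lists of equal length. Among the named genes, the rank difference (IAA minus Control) turned at TRIM55 (-7.72 points) and ALDOA (14.5 points) with a window of 500 bp, at LOC124902602 (-20.7 points) and ALDOA (14.5 points) with the summit inside the window, an alternative chosen after seeing the data, and at PDP1 (0.700 points) when ranked by fold. The cause was not tested for any of these.

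Leaving out each library in turn gave 2346 to 2591 higher and 3451 to 3700 lower genes, 172 to 206 gained and 675 to 1242 lost, and 851 to 1176 risen and 502 to 1542 fallen genes by limma. Summit positions gave 0 to 585 calls into and 0 to 634 out of genes, and 990 to 1276 and 866 to 1120 genes with summits 100 bp apart. Regions gave 0 to 923 higher and 0 to 1373 lower by limma, 4572 to 7595 and 5866 to 6803 by the rule of size, and 0 to 0 wider or narrower peaks. Without a library, 1 group holds a single library, assumed to vary like the other group. The shift of summits inside the start stayed at 45 to 51 bp, and the median rank difference of genes with AANATGGC after the start at 15.3 to 17.4 points.

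The replicate number as a block gave 1636 risen and 1570 fallen genes and 0 and 0 calls for summit position and for width. The deviations of same-numbered libraries correlated at -0.00708 to 0.0332, so the numbers were not taken to pair the libraries. Of the planned and added comparisons of counts and values, 136 stayed within 1.5 times the reported count, or kept their direction, 52 moved beyond it and 1 turned.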
